A study of Mus musculus with 4 samples.

Results

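The 9 genes described here belong to TGF-beta signalling and were chosen by name: the ligand genes Tgfb1, Tgfb2, Tgfb3 and Inhba, the latent TGF-beta binding protein genes Ltbp1 and Ltbp2, and Tgfbi, Smad7 and Skil, which are known to respond to the pathway. All exons listed for them were taken, which gave 162 of the 234718 exons and 9 of the 22835 genes in the expression table. The values are RPKM, read counts scaled to the length of the exon and the depth of the library, from polyadenylated RNA of mouse embryonic fibroblasts (MEFs). The library called MEF came from wild-type MEFs at passage 3. The Dox (-) and Dox (+) libraries came from Mitf knock-in MEFs at passage 5, untreated and treated with doxycycline (Dox) for 6 days. Both knock-in libraries carry ROSA26-M2rtTA +/+, a transactivator that Dox switches on, and Col1a1-TetO-Mitf +/-, a Dox-responsive Mitf transgene placed downstream of Col1a1, in cells derived from 1 embryonic stem cell clone by way of chimeric embryos. Their cultures also expressed mCherry and a puromycin resistance cassette, which allow them to be separated from cells of the host embryo. All 3 cultures were grown in DMEM with 10% serum. The primary melanocytes of the series were not analysed here. Each condition had 1 library, so no difference below has a replicate check, and the intervals cover counting error only. The wild-type and knock-in cells also differ in passage and derivation, which cannot be told apart from the genotype. No wild-type library was treated with Dox, so Mitf induction cannot be told apart from the Dox treatment itself.

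TGF-beta is secreted bound to its own propeptide in a latent complex, and a latent TGF-beta binding protein can tether that complex to the matrix until integrins, proteases or thrombospondin release the ligand. The released dimer, like activin A, the homodimer of the Inhba product, joins type I and type II receptor kinases that phosphorylate Smad2 and Smad3, which enter the nucleus with Smad4. The pathway then limits itself through Smad7, an inhibitory Smad that acts at the receptor, and through SnoN, the product of Skil, a repressor that binds Smads. In fibroblasts the pathway is best known for raising matrix production and the contractile genes of myofibroblasts. Inhba is an activin gene rather than a TGF-beta gene, and Ltbp2 is a matrix protein that, unlike Ltbp1, does not bind latent TGF-beta.

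RNA level per exon depends on where an exon ends and where a transcript starts, so the sequences that bear on the values are shown first. The highest exon of Ltbp2 and of Tgfbi is very short, and any read that overlaps an exon counts whole, which gives short exons a high RPKM. These are the 2 exons, from GENCODE M21 transcripts, 5′ to 3′, the first at chr12:84792957-84792971 on the minus strand and the second at chr13:56638021-56638045 on the plus strand of GRCm38 (mm10).
Ltbp2 exon: gcaacagatgcgaag
Tgfbi exon: gctgcccagaggtctgtgcgacttg
The 15 bases of the Ltbp2 exon are the 3′ end of a 126-base exon, and the annotation lists them on their own as the first exon of the transcript Ltbp2-204. The 25-base Tgfbi exon is exon 16 of the transcript Tgfbi-201.

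RefSeq promoter entries on GRCm38.p6 were found for 6 of the 9 genes, as 7 promoters, and those of Tgfb3, Smad7 and Skil were not matched. Shown are the 250 bases before the start of Tgfb2, the ligand with the largest difference between the knock-in libraries, at chr1:186705990-186706239 on the minus strand, and those before the long and short starts of Ltbp1, whose transcripts begin at separate places, at chr17:75005279-75005528 and chr17:75178531-75178780 on the plus strand. Capitals mark CACGTG, a core bound by MITF and many other factors, and CAGACA or its reverse complement TGTCTG, a Smad-binding core.
Tgfb2 promoter: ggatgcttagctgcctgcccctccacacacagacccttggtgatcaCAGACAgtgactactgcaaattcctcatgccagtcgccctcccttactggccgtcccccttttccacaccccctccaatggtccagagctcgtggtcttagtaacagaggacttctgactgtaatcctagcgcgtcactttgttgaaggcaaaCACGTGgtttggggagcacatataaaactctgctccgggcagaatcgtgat
Ltbp1 long start: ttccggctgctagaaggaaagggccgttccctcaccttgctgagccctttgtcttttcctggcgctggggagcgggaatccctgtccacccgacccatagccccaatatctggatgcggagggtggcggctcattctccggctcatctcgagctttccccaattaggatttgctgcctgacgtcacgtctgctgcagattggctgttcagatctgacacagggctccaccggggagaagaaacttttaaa
Ltbp1 short start: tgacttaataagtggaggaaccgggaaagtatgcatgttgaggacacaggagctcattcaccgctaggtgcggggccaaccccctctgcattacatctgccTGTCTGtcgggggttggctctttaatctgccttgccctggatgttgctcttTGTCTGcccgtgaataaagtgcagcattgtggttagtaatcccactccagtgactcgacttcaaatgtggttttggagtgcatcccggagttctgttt
CACGTG began 51 bases before the Tgfb2 start and was found in 1 of the 7 promoters, and in 6.02% of all 32851 promoter windows of this length. CAGACA, read on both strands, was found in 2 of 7, 204 bases before the Tgfb2 start and, as TGTCTG, 149 and 98 bases before the short Ltbp1 start, against 17.1% of all windows. CATGTG, the core of the M-box, was in 0 of 7 and 12.3% of all windows. The AP-1 core TGANTCA was in 0 of 7 and 6.75% of all windows. Each was searched on both strands, and the matches in the 7 promoters do not overlap one another. A match describes letters in the window and does not show binding.

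The libraries held 45000000, 45000000 and 44000000 reads for MEF, Dox (-) and Dox (+), as recovered from the RPKM values. A count of 3 reads on a 150-base exon corresponds to 0.444 to 0.455 RPKM. The check of the labels held: Mitf, at its highest exon, measured 1.52 RPKM in MEF, 30.8 in Dox (-) and 1544 in Dox (+). Fibroblast genes were high in all libraries, and the lowest of 8 markers reached 18.9, 79.7 and 48.2 RPKM at its highest exon in MEF, Dox (-) and Dox (+), with summed levels of 6963, 15688 and 4024 RPKM for the list. Macrophage genes moved with the condition: 8 of 8 markers exceeded their MEF level by over 4-fold in Dox (-), where 8.26% of genes above 10 RPKM did. All 8 were over 4-fold lower in Dox (+) than in Dox (-), where 5.41% of such genes were. Their summed level was 24.4, 6249 and 244 RPKM in MEF, Dox (-) and Dox (+), and none was at 0. Melanocyte genes summed to 1.57, 8.57 and 165 RPKM, with 3, 2 and 1 of 8 at 0, among them Oca2 in all 3 libraries. Most of the Dox (+) sum came from Tyrp1 and Mlana, at 64.0 and 90.5 RPKM. Sox10 went the other way, from 5.21 RPKM in Dox (-) to 1.24 in Dox (+), and Dct was at 0.265 and 0.664. At the highest exon, 3 of the 8, Tyrp1, Mlana and Pmel, exceeded 10 RPKM in Dox (+). Epithelial markers summed to 13.8, 2.92 and 2.14 RPKM, with none of 4 at 0. In bulk RNA, fewer cells of a type and less RNA per cell cannot be told apart.

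Across the 9 genes there were 3 patterns at the highest exon. The level of 6 genes (Tgfb2, Tgfb3, Inhba, Ltbp2, Tgfbi and Skil) was highest in Dox (-), that of Tgfb1 and Smad7 was highest in Dox (+), and Ltbp1 was highest in MEF, with 381, 345 and 292 RPKM in MEF, Dox (-) and Dox (+). Over the 13587 genes above 10 RPKM in any library, 24.99% were highest in Dox (-), 47.1% in Dox (+) and 27.9% in MEF. A gene's level here is that of its highest exon in each library, and the same genes are also given as reads of all exons together per summed exon length, the summed level, which allows levels of different genes to be compared. Ltbp1 was highest in Dox (-) by the summed level, at 112, 115 and 100 RPKM in MEF, Dox (-) and Dox (+). Its place as highest in MEF thus held for the highest exon only. By summed level the order in MEF was Ltbp1, Tgfbi, Tgfb3, Ltbp2, Inhba, Skil, Tgfb1, Tgfb2 and Smad7, from 112 to 9.40 RPKM. In Dox (-) it was Inhba, Tgfbi, Ltbp2, Tgfb3, Ltbp1, Tgfb1, Skil, Tgfb2 and Smad7, from 410 to 22.8 RPKM. In Dox (+) it was Inhba, Tgfb1, Tgfbi, Tgfb3, Ltbp1, Ltbp2, Skil, Smad7 and Tgfb2, from 243 to 5.72 RPKM. Tgfb1 thus moved up from near the end of the order to a place behind Inhba. Neighbours with close values, such as Ltbp1 and Tgfbi at 112 and 111 RPKM in MEF and Tgfbi and Tgfb3 at 121 and 120 in Dox (+), cannot be ranked without replicates.

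**Figure D1:**
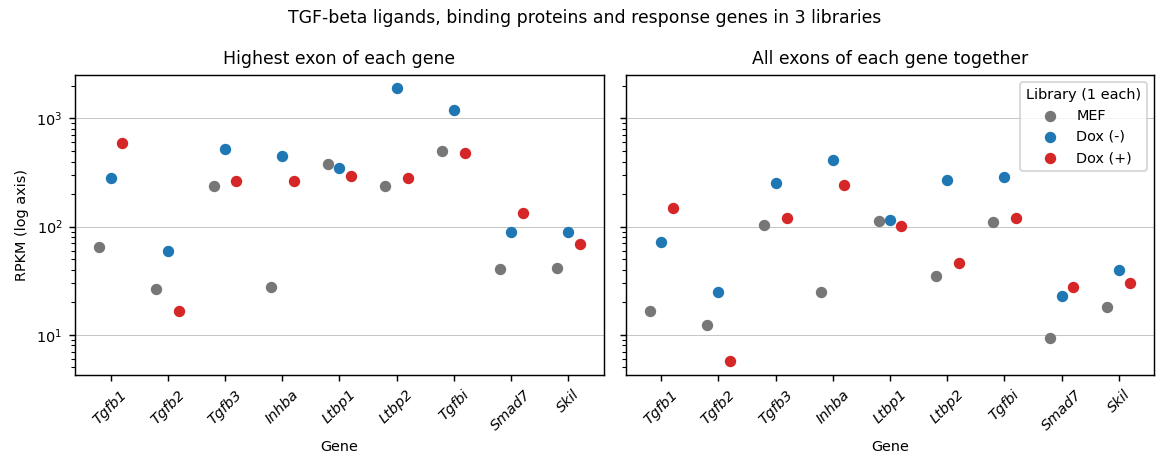
Level of each of the 9 genes in MEF, Dox (-) and Dox (+), 1 point per library, on a log RPKM axis, from the highest exon (left) and from all exons together (right). In the left panel 6 genes have their highest point in Dox (-), while Tgfb1 and Smad7 are highest in Dox (+) and Ltbp1 lies between 292 and 381 RPKM.

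The 3 TGF-beta ligands did not move together between Dox (-) and Dox (+). Tgfb1, the broadly expressed ligand, measured 65.3 RPKM at its highest exon in MEF, 283 in Dox (-) and 592 in Dox (+). It was thus low, middle and high in that order. On the 78-base exon that carried the most signal in the knock-in cells, 226, 995 and 2032 reads were counted, and Dox (+) was 2.09-fold above Dox (-) (95% interval 1.94 to 2.26). All 7 separate exons of Tgfb1 (chr7:25687002-25705077, plus strand) were higher in Dox (+), by 1.87- to 2.26-fold, so the value does not rest on a single exon. Against MEF the same exon was 4.40-fold higher in Dox (-) (3.81 to 5.11) and 9.20-fold higher in Dox (+) (8.01 to 10.6).

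Tgfb2, the ligand with essential roles in the developing heart and palate, went the other way. Its highest exon measured 26.4, 59.7 and 16.7 RPKM in MEF, Dox (-) and Dox (+), so that the induced cells had the lowest value of the 3. The 111-base exon at chr1:186632458-186632568 had 126, 298 and 78 reads, 3.74-fold lower in Dox (+) than in Dox (-) (2.90 to 4.86). Each of the 7 separate exons (gene at chr1:186622792-186705989, minus strand) was lower in Dox (+), by 2.94- to 4.86-fold, and the summed level of 12.3, 24.6 and 5.72 RPKM was 4.30-fold lower. Of its exons, 1 overlaps the antisense gene Gm29491, and the library kit does not mark strand.

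Tgfb3 was the most abundant of the 3 ligands in MEF and Dox (-). It measured 239, 527 and 265 RPKM at its highest exon, high in Dox (-) and at similar values in the other libraries. Reads on that 108-base exon numbered 1163, 2561 and 1259, which is 1.99-fold lower in Dox (+) than in Dox (-) (1.86 to 2.13), and Dox (+) was 1.11-fold above MEF (1.02 to 1.20), a direction that turned when the libraries were rescaled to the same median ratio (log2 change -0.10). All 7 exons (chr12:86056745-86079041, minus strand) were lower in Dox (+) than in Dox (-), by 1.91- to 2.35-fold, although 3 of them overlap Gm37804 or Gm48008 and could hold reads of those genes.

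Because the ligands moved in different directions, their proportions shifted. The summed levels of Tgfb1, Tgfb2 and Tgfb3 added up to 132 RPKM in MEF, 348 in Dox (-) and 274 in Dox (+). Tgfb1 made up 12.5% of that sum in MEF, 20.7% in Dox (-) and 54.2% in Dox (+). Tgfb3 made up 78.2%, 72.2% and 43.7%, and Tgfb2 9.32%, 7.07% and 2.09%. The ligand with the largest share was therefore Tgfb3 in MEF and Dox (-) and Tgfb1 in Dox (+).

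Inhba, which encodes the subunit of activin A, was the member that differed most between MEF and Dox (-). Its highest exon measured 27.7 RPKM in MEF, 446 in Dox (-) and 263 in Dox (+), far above MEF in both knock-in libraries. The 969-base exon at chr13:16026243-16027211 held 1205, 19142 and 11074 reads, 15.9-fold higher in Dox (-) than in MEF (15.0 to 16.9) and 1.69-fold lower in Dox (+) than in Dox (-) (1.65 to 1.73). By summed level Inhba was the most abundant of the 9 genes in both knock-in libraries, at 410 and 243 RPKM, and measured 25.1 RPKM in MEF. Of its 5 separate exons 4 were lower in Dox (+) than in Dox (-), and the exception, the annotated first exon at chr13:16011851-16012090, had only 2, 6 and 13 reads. Most of the RNA covered the exons after the first pair of exons, and the next one, at chr13:16014451-16014532, had 23, 1067 and 628 reads.

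**Figure D2:**
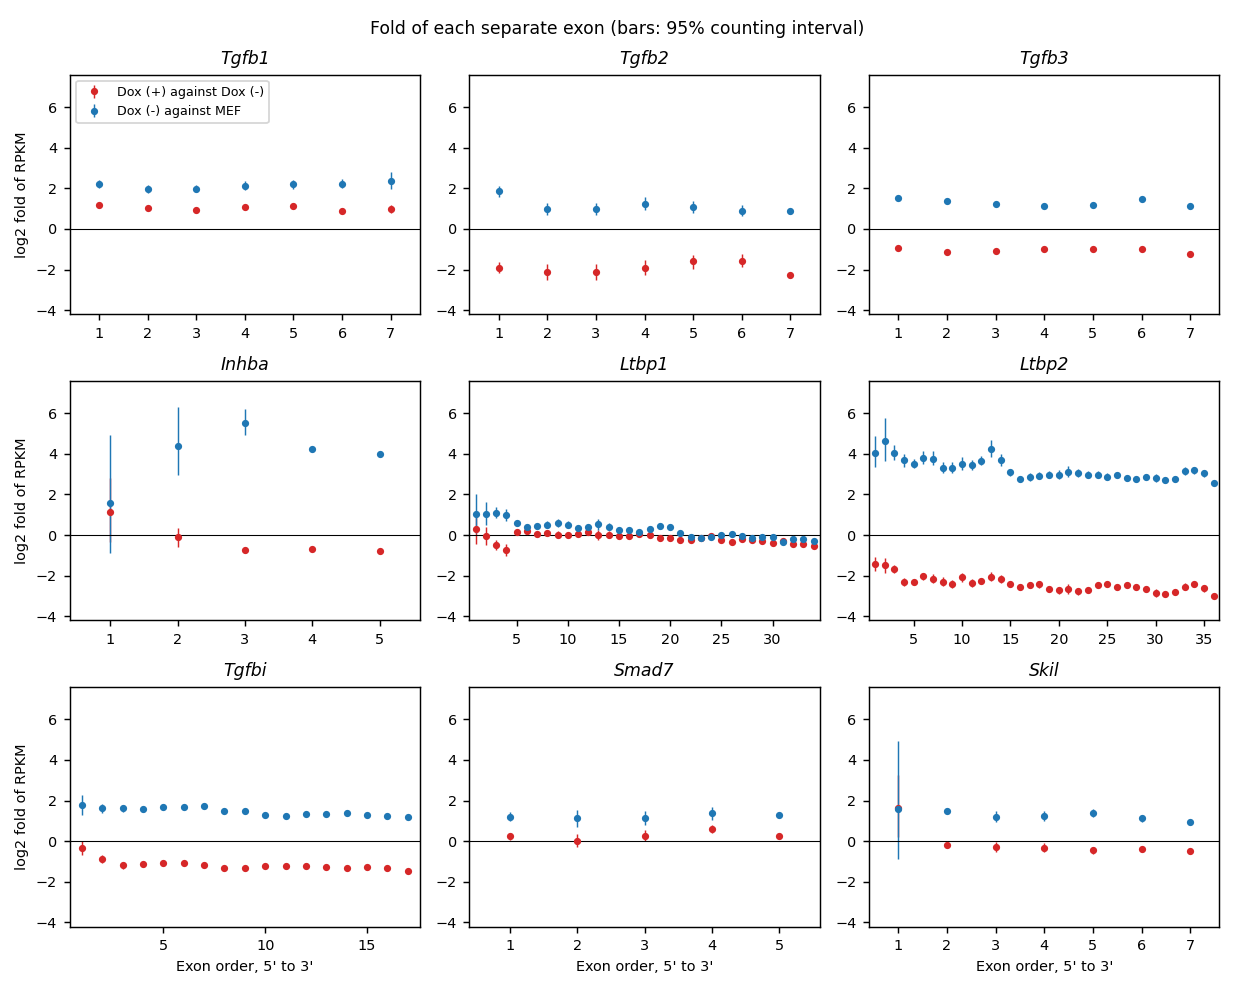
Log2 fold of RPKM for every separate exon of the 9 genes, in order from the 5′ to the 3′ end, in Dox (+) against Dox (-) (red) and Dox (-) against MEF (blue), with bars for the 95% counting interval. The exons of Tgfb1 are above 0 and those of Tgfb2, Tgfb3, Ltbp2 and Tgfbi below 0 in Dox (+) against Dox (-), while the exons of Ltbp1 fall on both sides.

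The binding protein genes differed from each other. Ltbp2 had the largest difference with Dox of the 9 genes. Its highest exon, the 15-base end shown above, measured 239, 1905 and 279 RPKM in MEF, Dox (-) and Dox (+), from 161, 1286 and 184 reads, so that Dox (-) stood far above the other libraries. Dox (+) was 6.83-fold lower than Dox (-) (5.85 to 8.02), and Dox (-) was 7.99-fold higher than MEF (6.78 to 9.47). Measured over its whole 126 bases, the exon that contains those 15 had 44.97, 375 and 55.4 RPKM, so the level is lower while the ratios are much the same. All 36 separate exons of Ltbp2 (chr12:84783212-84876532, minus strand) were lower in Dox (+), by 2.65- to 7.98-fold, and 3 of its listed exons overlap the antisense gene D030025P21Rik. Between Dox (+) and MEF the ratio on the 15-base exon was 1.17 (0.941 to 1.45), but 32 of the 36 separate exons were higher in Dox (+), 29 with an interval above 1 and 1 of the others with an interval below 1. The log2 fold against MEF was 1.09 over the 5′ exons and 0.09 over the 3′ exons, so the distance from MEF depended on the exons read. In this comparison the fold was higher over the 5′ exons in 91.4% of 7457 genes, by a median of 0.47 log2 units (quartiles 0.24 to 0.74). Ltbp2, at 1.00, lay above those quartiles.

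Ltbp1, the carrier of latent TGF-beta, was nearly level by comparison. It had 381, 345 and 292 RPKM at its highest exon in MEF, Dox (-) and Dox (+) and 112, 115 and 100 RPKM by summed level. Of 34 separate exons (chr17:75005568-75392512, plus strand), 11 were higher and 23 lower in Dox (+) than in Dox (-). The direction followed the position in the transcript: with the exons split in the middle of their order, the fold over the 5′ exons was 0.04 on the log2 scale and that over the 3′ exons -0.31. Such a difference was general, since the fold was higher over the 5′ exons in 89.9% of the 7457 genes with at least 6 separate exons and 100 reads on each side, with a median of 0.25 log2 units (quartiles 0.13 to 0.37), and Ltbp1, at 0.35, lay within those quartiles. The direction given for Ltbp1 therefore depends on which exons are read. The other members with a value (7 in all) were also higher over the 5′ exons, by 0.04 for Tgfb1 to 0.46 for Ltbp2, and none of them changed direction between the 5′ and 3′ exons. Tgfb1 lay below the quartiles of all genes and Ltbp2 above them.

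The long form of Ltbp1 has 4 exons that the short form lacks, and the short form has a stretch of 227 bases, chr17:75178810-75179036, that the long form lacks. The long-form exons had 342, 709 and 504 reads in MEF, Dox (-) and Dox (+), which was 2.07-fold higher in Dox (-) than in MEF (1.82 to 2.37) and 0.727 of Dox (-) in Dox (+) (0.647 to 0.816). The short-form stretch had 54, 79 and 84 reads, taken as the reads of the whole first exon minus those of its shared part. Its ratio of 1.09 between Dox (+) and Dox (-) had an interval from 0.790 to 1.498, so that a difference was not detectable at this depth. Against MEF the stretch was also higher, 1.46-fold in Dox (-) (1.02 to 2.11) and 1.59-fold in Dox (+) (1.12 to 2.28). In Dox (+) the long-form exons were 1.51-fold above MEF (1.31 to 1.73). Reads on the long form per read on the short form were 6.33, 8.97 and 6.00, lengths not considered. Reads crossing into the shared part are left out of the short form, while a read spanning long-form exons counts on each. The size of these ratios therefore does not give the proportion of the forms. Reads were present on both in all 3 libraries. These exons lie at the 5′ end, and the part of the general 5′ to 3′ pattern in their values was not tested.

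**Figure D3:**
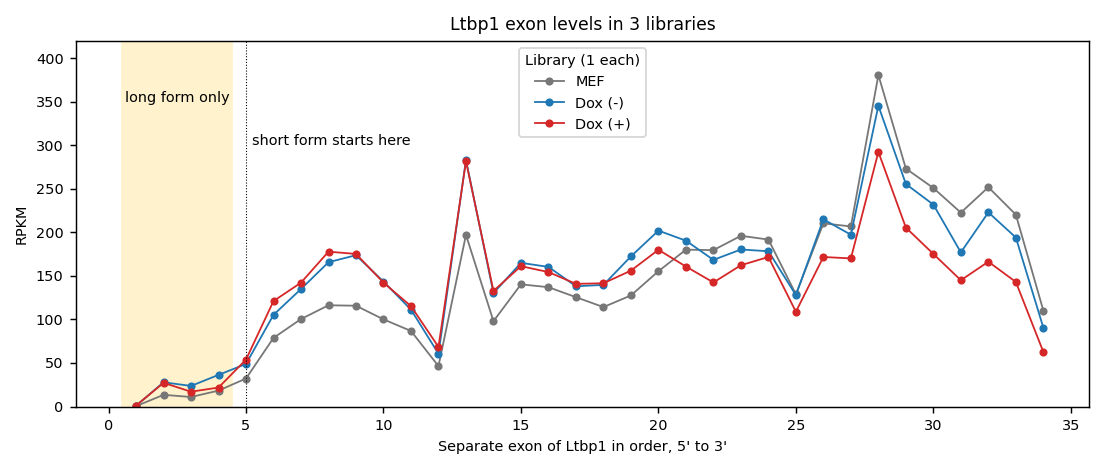
RPKM of the 34 separate exons of Ltbp1 in order from the 5′ to the 3′ end, 1 line per library, with the 4 exons of the long form shaded and the start of the short form dotted. The Dox (+) line runs near the Dox (-) line over the 5′ exons and below it over most 3′ exons.

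Among the response genes, Tgfbi, a secreted matrix protein named for its induction by TGF-beta, followed the pattern of Ltbp2 with a smaller difference. It measured 500, 1196 and 484 RPKM at its highest exon in MEF, Dox (-) and Dox (+), so that Dox (-) was high and the other libraries were close to each other at this exon. The 25-base exon had 563, 1345 and 532 reads, 2.47-fold lower in Dox (+) than in Dox (-) (2.23 to 2.74) and 0.966 of MEF in Dox (+) (0.857 to 1.09). All 17 exons (chr13:56609523-56639562, plus strand) were lower in Dox (+) than in Dox (-), by 1.25- to 2.79-fold. Against MEF, 15 of the 17 were higher in Dox (+), 10 with an interval above 1 and 1 with an interval below 1, and the log2 fold was 0.49 over the 5′ exons and -0.06 over the 3′ exons. This difference, 0.54, lay within the quartiles of the 7457 genes in that comparison, 0.24 to 0.74. The summed level, less affected by the short exon, was 111, 290 and 121 RPKM.

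Smad7 and Skil, the 2 feedback genes, did not move in the same direction with Dox. Smad7 measured 40.3, 89.2 and 135 RPKM at its highest exon in MEF, Dox (-) and Dox (+), lowest in MEF and highest in Dox (+), as for Tgfb1. On a 75-base exon, 116, 301 and 446 reads were counted, 1.52-fold higher in Dox (+) than in Dox (-) (1.31 to 1.76). The 5 separate exons (chr18:75367529-75395935, plus strand) were all higher in Dox (+), but by 1.02- to 1.52-fold, and the interval lay above 1 for 3 of them. By summed level the difference was smaller, at 22.8 and 27.6 RPKM, or 1.21-fold. That log2 change of 0.27 was close to the median ratio of expressed genes in this comparison, 0.26 at the highest exon. With the libraries rescaled to that median, the highest-exon log2 change was 0.33 for Smad7 and 0.80 for Tgfb1. Skil measured 41.2, 89.9 and 69.1 RPKM, highest in Dox (-) and lowest in MEF. Its 225-base exon had 417, 910 and 684 reads, 1.30-fold lower in Dox (+) than in Dox (-) (1.18 to 1.44), and 6 of its 7 separate exons (chr3:31095058-31122577, plus strand) were lower.

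The 3 comparisons were then read against all genes by a rule set here, which asks that the highest exon exceed 10 RPKM in either library and differ by over 4-fold. The study's methods applied a minimum of 10 RPKM and a 4-fold difference to single exons, over all its samples and between MEFs and melanocytes. All 9 members were above 10 RPKM in every comparison. In Dox (+) against Dox (-), 0 members were called higher, where 1.64% of the 13307 genes were, and 1 was called lower, Ltbp2, where 5.41% were. With a 2-fold threshold, 1 member (Tgfb1) was higher against a background of 10.8%, and 3 (Tgfb2, Ltbp2 and Tgfbi) were lower against 11.1%. The median log2 fold change of the members, with 1 RPKM added to each level, was -0.76, and that of all genes tested was 0.23. The median ratio of expressed genes was 0.26 log2 units above 0 in this comparison, and relative to it the members' median was -1.02, with Tgfb2 also more than 4-fold lower.

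In Dox (-) against MEF, 3 members (Tgfb1, Inhba and Ltbp2) were more than 4-fold higher against a background of 8.26%, and 0 were lower against 1.21%. With a 2-fold threshold 8 of 9 were higher against 17.3%, all but Ltbp1, whose log2 change of -0.14 became 0.04 by summed level, and 0 were lower against 7.93%. The median log2 fold change was 1.15 for the members and 0.01 for all 13234 genes tested. The macrophage markers given above were higher in the same library, with a median log2 change of 6.69, and -4.88 in Dox (+) against Dox (-). The fibroblast markers had medians of 1.41 and -0.79, with Twist1 lower in Dox (-) than in MEF. Of these, Thy1, Twist1 and Prrx1 were higher in Dox (+) than in Dox (-) at the highest exon. The part of either cell type in the levels of the 9 genes was not tested. At the highest exon, Tgfb2, Tgfb3, Inhba, Ltbp1, Ltbp2, Tgfbi and Skil were lower in Dox (+) than in Dox (-). Tgfb1 and Smad7 were higher in Dox (+) than in Dox (-).

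In Dox (+) against MEF, which shares its libraries with the comparisons above, 2 members (Tgfb1 and Inhba) were more than 4-fold higher against a background of 6.55% and 0 were lower against 3.4%. With a 2-fold threshold 3 were higher, with Smad7 added, against 20.2%, and 0 were lower against 8.98%. The median log2 fold change of the members, 0.22, was close to that of all 12941 genes tested, 0.27. Tgfb3, Ltbp2 and Tgfbi differed from MEF by log2 changes of 0.15, 0.22 and -0.05, each smaller in size than the median of all genes, and rescaling turned Tgfb3 and Ltbp2 to -0.10 and -0.02. Tgfb2 was below MEF with a log2 change of -0.63 and in 7 of 7 separate exons. Ltbp1 had a log2 change of -0.38 at its highest exon, but 20 of its 34 separate exons were higher and 14 lower than in MEF, with a log2 fold of 0.47 over the 5′ exons and -0.42 over the 3′ exons. This difference, 0.88, lay above the quartiles of the 7457 genes in this comparison, 0.24 to 0.74.

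**Figure D4:**
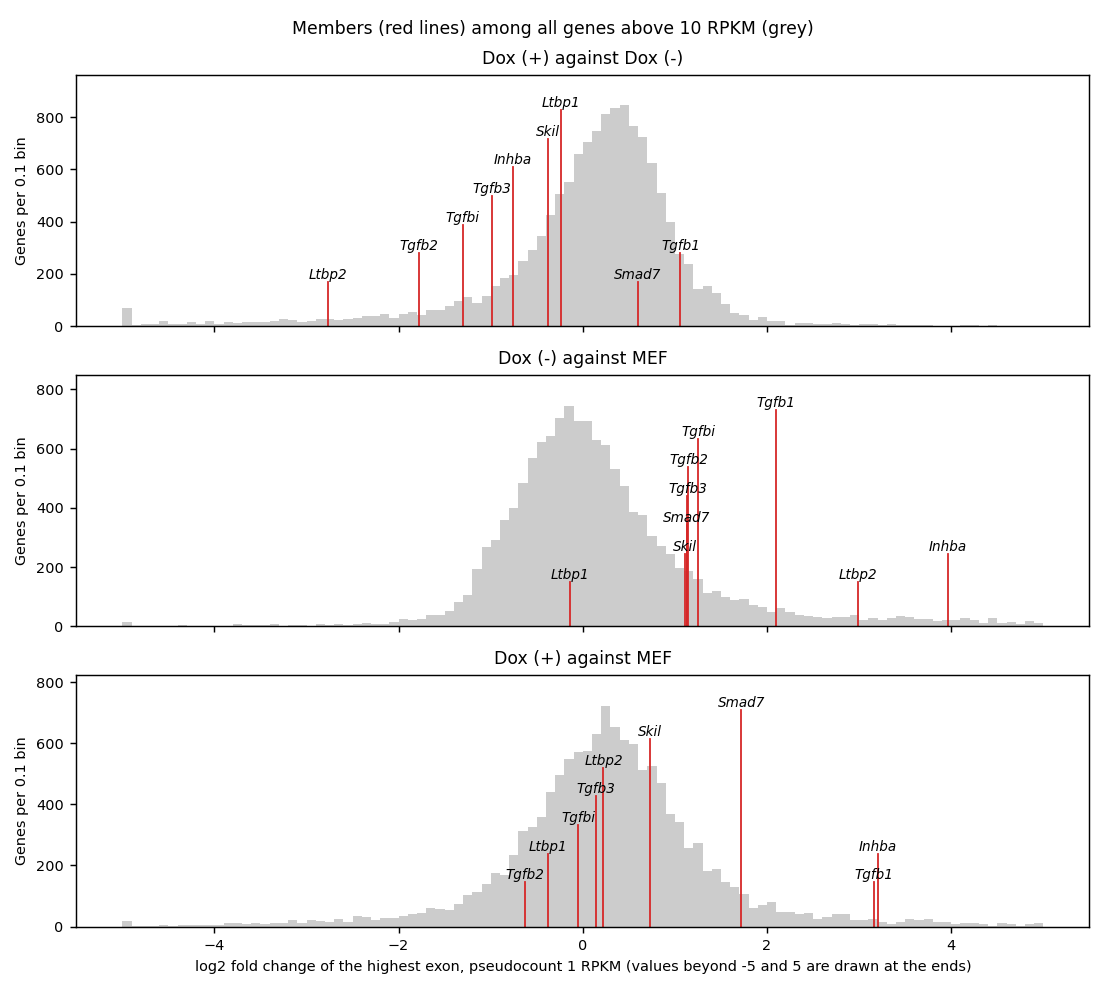
Distribution of log2 fold changes of the highest exon over all genes above 10 RPKM (grey, genes per bin) in each of the 3 comparisons, with a red line at each of the 9 genes. In Dox (-) against MEF 8 of the 9 lines lie above 1, and in Dox (+) against Dox (-) the lines run from -2.77 for Ltbp2 to 1.06 for Tgfb1.

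Most receptor genes were higher in Dox (-) than in MEF. Of those above 10 RPKM, 1 was more than 2-fold lower with Dox at the highest exon, where 11.1% of all genes were, and 0 were higher, where 10.8% were. Of 8 receptor genes 7 were above 10 RPKM, and 3 of these exceeded MEF by over 4-fold in Dox (-), where 8.26% of all genes did, while 0 were called in Dox (+) against Dox (-), where 1.64% of all genes were higher and 5.41% lower. The type I receptor Tgfbr1 measured 14.4, 74.5 and 42.3 RPKM in MEF, Dox (-) and Dox (+) at its highest exon, the co-receptor Eng 11.9, 70.1 and 50.1, and the endothelial type I receptor Acvrl1 15.9, 93.7 and 100.6, although the Acvrl1 value rests on a 14-base exon and by summed level its fold over MEF was 3.43 in Dox (-) and 3.42 in Dox (+). Tgfbr2, the type II receptor for TGF-beta, was lower in both knock-in libraries than in MEF, at 305, 268 and 168 RPKM. The activin receptor Acvr2a, the gene above 10 RPKM past 2-fold with Dox at the highest exon, measured 20.4, 46.8 and 19.96. By summed level Tgfbr1 was also past 2-fold, 2.23-fold lower with Dox, at 41.6 and 18.6 RPKM in Dox (-) and Dox (+), and Acvr2a was 2.03-fold lower. At the highest exon Tgfbr3, a co-receptor, measured 20.8, 38.0 and 45.9, Acvr1b, the activin type I receptor, 18.8, 23.2 and 22.9, and Acvr2b 3.39, 1.44 and 2.90. The median log2 change of the list was -0.48 in Dox (+) against Dox (-) and 1.16 in Dox (-) against MEF. In Dox (+), 2 genes were called higher than in MEF, where 6.55% of all genes were. Endothelial markers summed to 0.221, 4.43 and 1.29 RPKM in the same libraries, with 1, 0 and 1 of 4 at 0, and their part in the Eng and Acvrl1 values was not tested.

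The Smads themselves were expressed throughout. At its highest exon in MEF, Dox (-) and Dox (+), Smad2 measured 1919, 2000 and 2409 RPKM on an exon of 3 bases. Smad3 measured 143, 200 and 295 on 25 bases, and Smad4 189, 209 and 322 on exons of 51 or 30 bases. By summed level Smad2 measured 40.6, 35.4 and 38.6 RPKM, Smad3 40.2, 41.5 and 62.3, and Smad4 52.5, 57.0 and 74.6. Of the 12 genes for Smads and their repressors 0 were called in either direction in Dox (+) against Dox (-) at 4-fold, where 1.64% of all genes were higher and 5.41% lower. With a 2-fold threshold Tgif1, a repressor that binds Smads, and Smurf1, a ubiquitin ligase, were higher with Dox, at 127 and 297 and at 123 and 274 RPKM in Dox (-) and Dox (+), and the inhibitory Smad6 was lower, at 75.5 and 31.8. Of all genes, 10.8% were higher and 11.1% lower at this threshold. By summed level Smurf1 was 1.99-fold higher with Dox. Pmepa1, a feedback inhibitor induced by TGF-beta, measured 113, 638 and 793 RPKM on a 51-base exon in MEF, Dox (-) and Dox (+). By summed level it measured 31.2, 164 and 158 RPKM, so that Dox (+) was not above Dox (-). Pmepa1 was the only gene of the list called against MEF, higher in both knock-in libraries. Of all genes, 8.26% were higher than in MEF in Dox (-) and 6.55% in Dox (+). The list had a median log2 change of 0.23 in Dox (+) against Dox (-) and 0.39 in Dox (-) against MEF.

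Genes for latency and activation differed among themselves with Dox, around a median log2 change of -0.10. Of the 12, 10 were above 10 RPKM in Dox (+) against Dox (-), and 2 were more than 4-fold lower, where 5.41% of all genes were. These were Fbn2, a microfibril protein of the embryonic matrix, at 200, 238 and 21.3 RPKM in MEF, Dox (-) and Dox (+), and Nrros, which anchors latent TGF-beta on macrophages and microglia, at 0.214, 33.7 and 2.93. Nrros moved in the direction of the macrophage markers. Lrrc32, which anchors latent TGF-beta on other cells, was higher in both knock-in libraries than in MEF, at 12.2, 169 and 175.5 RPKM. Its summed level was 11.9, 168 and 149 RPKM. At a 2-fold threshold Fbn1, the main fibrillin, was lower as well, at 348, 1131 and 365 RPKM, where 11.1% of all genes were. At that threshold 0 genes of the list were higher with Dox, where 10.8% of all genes were. Thbs1, an activator of latent TGF-beta, measured 4541, 11149 and 6017 RPKM and was 1.85-fold lower with Dox, or 2.03-fold by summed level. In Dox (-) against MEF the median was 1.27, and Lrrc32 and Nrros were called higher, where 8.26% of all genes were. In Dox (+) against MEF, Lrrc32 was called higher and Fbn2 lower, among 9 genes above 10 RPKM. Of all genes, 6.55% were higher and 3.4% lower in that comparison.

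On the activin side, Fst, the secreted antagonist of activin, matched the pattern of Inhba only in part. It measured 22.7, 343 and 44.8 RPKM in MEF, Dox (-) and Dox (+), so it was 15.1-fold higher in Dox (-) than in MEF and 7.66-fold lower in Dox (+) than in Dox (-), while Inhba was 1.69-fold lower. Of the 4 genes above 10 RPKM, Fst was the only one called at 4-fold, where 5.41% of all genes were lower with Dox and 8.26% higher in Dox (-) than in MEF. Fstl1, a related secreted protein, was the other gene past 2-fold with Dox, at 5147 and 2194 RPKM, where 11.1% of all genes were lower. The list's median log2 change was -0.24 in Dox (+) against Dox (-) and 0.68 in Dox (-) against MEF. In Dox (+) against MEF 0 genes were called, where 6.55% of all genes were higher and 3.4% lower.

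Among 12 other response genes, 2 were more than 4-fold lower in Dox (+) than in Dox (-), where 5.41% of all genes were, and 0 were higher, where 1.64% were. These were Col1a1, at 4958, 12562 and 2301 RPKM in MEF, Dox (-) and Dox (+), and the matrix protein gene Postn, at 1524, 7703 and 1400. Col1a1 lies beside the transgene, and whether its level is affected by that was not tested. The contractile genes Acta2, at 10218, 12721 and 31696 RPKM, and Tagln, at 9298, 7510 and 15514, were more than 2-fold higher with Dox, where 10.8% of all genes were. Both are also smooth muscle markers, and the other markers of that list, Cnn1 and Myh11, measured 425, 850 and 1095 RPKM and 1.75, 129 and 108 RPKM in the same libraries. Compared with MEF, 3 of the 12 were more than 4-fold higher in Dox (-), where 8.26% of all genes were, and 2 of these also in Dox (+), where 6.55% were. They were Ccn2, a matricellular protein gene, at 457, 1901 and 1904 on a 24-base exon, Jag1, at 7.91, 217 and 79.5, and, in Dox (-) only, Postn. By summed level Ccn2 measured 271, 935 and 620 RPKM, 3.45-fold and 2.28-fold above MEF, so that neither call was kept, and Dox (+) was 1.51-fold below Dox (-). The median log2 change of the 12 was -0.21 in Dox (+) against Dox (-), beside 0.23 for all genes, and 0.73 in Dox (-) against MEF, beside 0.01.

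**Figure D5:**
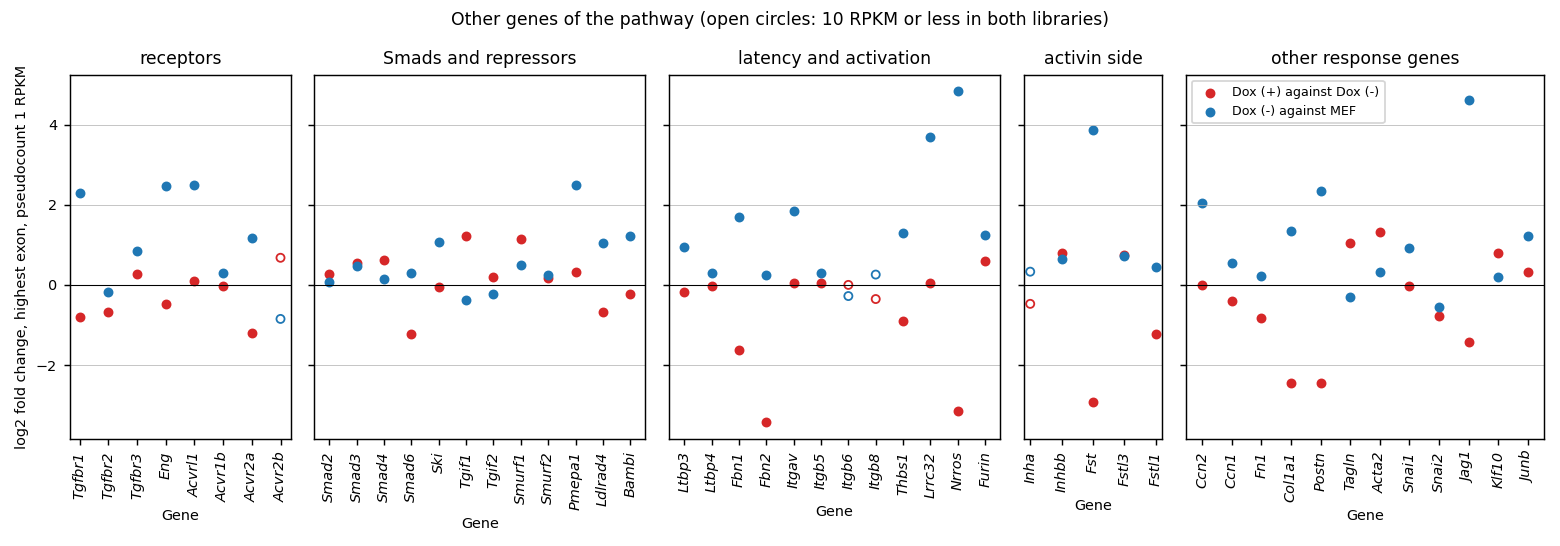
Log2 fold change of the highest exon for the other genes of the pathway, by list, in Dox (+) against Dox (-) (red) and Dox (-) against MEF (blue). Open circles mark genes at or below 10 RPKM in both libraries. Fst, Fbn2, Nrros, Col1a1 and Postn lie below -2 in red, and Acta2 and Tagln lie above 1.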

How the data were processed

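RNA was sequenced from 4 cultures, and 3 libraries with a matching column were used; 1 other value column, whose name fits no sample, was left out, and the melanocytes were not analysed here. The authors deposited RPKM per Ensembl exon, from reads aligned with TopHat2 2.0.10 to mm10 and counted over exons with bedtools, per the labels and methods. Reads were recovered from the deposited RPKM by the million-read divisor that made values whole (96.9 to 97.2% of values below 200 reads, within 0.02 reads). Exons were matched to GENCODE M21 (228132 of 234718). As in the study's methods, a gene's level was its highest exon. The call rule, over 10 RPKM in either library compared and over 4-fold between them, was set here; the study applied such limits to single exons and between MEFs and melanocytes. Log2 changes are log2(RPKM + 1), which understates changes of low genes. With 1 library per condition no test was run. Intervals are exact 95% Poisson and conditional binomial intervals for reads, taken on the member exon with the highest level whose reads came out whole within 0.1 reads (156 of 162 exons did). Depth limits only low exons.

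All 9 members were described, with other pathway genes named where they were receptors or Smads, past 4-fold in a comparison or past 2-fold with Dox; Thbs1 was named after its values were seen. Of the list of other response genes, 1 gene is not reported here and was left out of its counts and median. Members and lists were chosen with earlier results of these data known. Alternatives were the summed level, a fixed exon, other thresholds, rescaling and pseudocounts; the split into 5′ and 3′ exons was chosen later, with the data seen. The scripts ran in Python 3.11.15 with SciPy 1.17.1, NumPy 2.4.6 and pandas 2.3.3 and were checked on simulated data.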

Additional observations from a re-analysis of the deposited data

How the results depend on the processing

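Members called at 4-fold in Dox (+) against Dox (-) were 0 higher and 1 lower. The lower count was 2 with the summed level and 2 after rescaling the libraries by their median ratio, with Tgfb2 added, and at 2-fold the counts were 1 higher and 3 lower. In Dox (-) against MEF the 3 higher members became 8 at 2-fold. An expression threshold of 1 RPKM or none, and a fixed exon, left the number of members called as it was. Rescaling shifted the median of all genes by 0.26, -0.05 and 0.25 log2 units in Dox (+) against Dox (-), Dox (-) against MEF and Dox (+) against MEF. It moved the members' median from -0.76 to -1.02 in the first and from 0.22 to -0.022 in the last, where calls over all genes went from 848 higher and 440 lower to 644 and 527. Over the 4-fold alternatives the share of all genes called ran from 1.07 to 5.64% higher and 4.03 to 13.4% lower with Dox, 5.96 to 18.4% and 0.859 to 4.37% in Dox (-) against MEF, and 4.36 to 14.6% and 2.67 to 7.77% in Dox (+) against MEF. Of 135 single-member alternatives 4 changed sign, none of a called value: Ltbp1 in Dox (-) against MEF (0.04) and Tgfbi in Dox (+) against MEF (0.13) with the summed level, and Tgfb3 (-0.10) and Ltbp2 (-0.02) in Dox (+) against MEF after rescaling. Over the 5′ exons alone, added after the data were seen, the median of 7 members went from 1.28 to 1.48 in Dox (-) against MEF and from 0.21 to 0.49 in Dox (+) against MEF. The causes were not tested. No paired analysis was possible because each condition had 1 library, so no library could be left out either. The planned comparisons with melanocytes were not run.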
